A study of Mus musculus with 6 samples.

Results

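The genes described here are 30 genes of mitochondrial respiration, out of 32285 genes counted in each library. They were chosen by symbol: 22 are encoded in the nucleus and 8 in mitochondrial DNA, and each symbol matched 1 row in all 6 libraries. The nuclear genes comprise subunits of complex I (3), complex II (3), complex III (3), complex IV (5, counting Ndufa4) and ATP synthase (4), the electron carrier cytochrome c (1) and enzymes of the citric acid cycle (3). The mitochondrial genes encode subunits of complex I (3), complex III (1), complex IV (3) and ATP synthase (1). All libraries came from mice that had received 10000 SB28 cells, a mouse glioma line, and were sampled on day 18; the labels give no strain, age, allele or other treatment. Droplet-based 3′ single-cell RNA sequencing was run on 3 groups of 2 libraries: CD45+ leukocytes of the brain tumor, neutrophils sorted from blood, and neutrophils sorted from the tumor. Both sorts took cells positive for CD45 and CD11b, bright for LY6G and low or negative for LY6C, and the tumor was collected after perfusion, so tissue and handling cannot be told apart. The labels number the libraries but do not name the mice or say whether animals were pooled. P-values therefore concern the spread between these libraries, which may be technical, and edgeR estimates that spread with variance shared over genes.

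The respiratory chain passes electrons from NADH and succinate through complexes I, II and III and cytochrome c to oxygen at complex IV, and the proton gradient this builds drives ATP synthase. Complexes I, III and IV and ATP synthase are mosaics of nuclear-encoded and mitochondrially encoded subunits, while complex II, cytochrome c and the citric acid cycle enzymes are nuclear-encoded throughout. Mitochondrial DNA is transcribed as long precursors from both strands that are then cut into single messengers, so the levels of its transcripts depend on transcription, cleavage and decay. Circulating neutrophils are known for few mitochondria and for a reliance on glycolysis, and cytochrome c is kept low in them.

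Cells in which S100a8 and S100a9, the most abundant neutrophil transcripts, together made up at least 0.5% of unique molecular identifiers (UMIs) were classed as neutrophils. This class held 2915 and 4971 cells in the blood libraries (12668716 and 19308586 UMIs) and 3335 and 5529 in the sorted tumor libraries (15463718 and 24388543 UMIs). In the CD45+ libraries it held 611 and 792 cells (1379719 and 3157589 UMIs), beside 8008 and 7245 other cells (69997284 and 109018057 UMIs). The summed level of 11 neutrophil markers was 28361 and 30621 UMIs per 1000000 (CPM) in blood neutrophils, 18993 and 22312 in sorted tumor neutrophils, 15424 and 17358 in CD45+ tumor neutrophils, and 1402 and 1367 in the other CD45+ tumor cells, with every marker detected in each neutrophil class.

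In the tumor the class also carried RNA of mononuclear phagocytes, the cells that make complement C1q. Their 10 markers summed to 377 and 502 CPM in blood neutrophils, 5409 and 4061 in sorted tumor neutrophils and 8276 and 12788 in CD45+ tumor neutrophils, against 18031 and 19715 in other CD45+ tumor cells; none of the 10 was at 0 in any class. At least 1 UMI of C1qa, C1qb, C1qc, Cd3e or Cd79a was found in 0.515% and 3.80% of blood, 29.0% and 29.6% of sorted tumor and 38.5% and 52.8% of CD45+ tumor neutrophils. Without those cells the phagocyte markers summed to 350 and 449 CPM in blood, 502 and 383 in sorted tumor and 1878 and 1818 in CD45+ tumor neutrophils. Values without those cells, called marker-free below, are therefore set beside the main ones; leaving them out also leaves out neutrophils that merely carried a stray UMI. Of the other marker lists, erythroid markers reached 316 CPM in the second blood library and 1.03 to 10.5 CPM in the neutrophils of the other libraries. Monocyte markers reached 950 and 987 CPM and platelet markers 153 and 258 in CD45+ tumor neutrophils, against 176 and 237 and 32.8 and 12.9 in blood, against 229 and 181 and 9.12 and 39.6 in sorted tumor. B cell, T or NK cell, dendritic cell and tumor or neural cell markers stayed at or below 47.2 CPM in every neutrophil class.

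The first CD45+ library and the second sorted tumor library shared 162 cell barcodes, 2.45% of the latter, whereas other pairs of libraries shared between 3 and 35. These barcodes had a median of 27892 UMIs in the sorted tumor library and 740 in the CD45+ library, and 151 of the 162 had more UMIs in the former. Of the second sorted tumor library's neutrophils, 106 (1.92%) had a barcode found in another library, and they held 8.43% of the class's UMIs. Leaving out every barcode found in more than 1 library lowered C1q in that class from 1587 to 651 CPM, and the main results that include it are given with and without those barcodes.

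Most mitochondrially encoded genes were higher in tumor than in blood neutrophils, and unequally so. edgeR called 7 of the 8 higher in sorted tumor neutrophils and none lower, in a comparison in which 63.7% of 13587 genes were called (33.1% higher, 30.6% lower), with a median log2 change of 1.41 against 0.02 over all genes tested. The complex I genes mt-Nd2 and mt-Nd1 rose the most, while mt-Nd4, of the same complex, rose less than mt-Cytb and mt-Atp6. Mt-Co1, which encodes the catalytic subunit of complex IV, had the smallest change. The share called in the marker-free cells was 58.2% of 12355 genes (29.3% higher, 28.9% lower), and there the same 7 were called, with a median of 1.19. With library sizes in place of TMM factors the median of all genes in marker-free cells moved from −0.02 to −0.32, that of the mitochondrial genes was 0.91 and the same 7 were called. Marker-free changes below are with TMM factors.

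Of the complex I genes, mt-Nd2 stood at 49.4 and 59.8 CPM in the blood libraries and 298 and 256 in the sorted tumor libraries. The groups were far apart, and mt-Nd2 rose by 2.40 ± 0.13 on the log2 scale (SE, adjusted p = 7.26e-06 in edgeR), or 5.27-fold. Mt-Nd1 stood at 61.6 and 65.4 CPM in blood and 283 and 225 in tumor, and mt-Nd4 at 161 and 174 against 416 and 338. Both were higher in each tumor library than in each blood library, rising by 2.05 ± 0.12 and 1.22 ± 0.12. The products of all 3 genes lie in the membrane arm of complex I, which pumps protons. In marker-free cells the changes were 2.17 ± 0.13, 1.81 ± 0.14 and 0.99 ± 0.12 for mt-Nd2, mt-Nd1 and mt-Nd4. Without shared barcodes the second tumor library stood at 182, 161 and 264 CPM for the same 3 genes, still above both blood libraries, and the changes were 2.29 ± 0.20, 1.94 ± 0.22 and 1.15 ± 0.18.

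Mt-Cytb, the cytochrome b of complex III, was measured at 168 and 186 CPM in blood and 603 and 514 in sorted tumor neutrophils. It rose by 1.71 ± 0.12 (adjusted p = 2.29e-05 in edgeR; marker-free 1.41 ± 0.12). Mt-Atp6, part of the proton channel of ATP synthase, was measured at 397 and 422 CPM in blood and 1301 and 1096 in tumor. It rose by 1.61 ± 0.14 (marker-free 1.39 ± 0.13). Without shared barcodes the second tumor library stood at 387 CPM for mt-Cytb and 861 for mt-Atp6, and the changes were 1.62 ± 0.19 and 1.53 ± 0.20. With all barcodes, in both genes the libraries of a tissue lay closer to each other than to any library of the other tissue.

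Complex IV genes moved less. Mt-Co2, which holds the copper site that takes electrons from cytochrome c, stood at 496 and 486 CPM in blood and 1068 and 905 in sorted tumor neutrophils, and mt-Co3, a core subunit, at 483 and 476 against 962 and 841. They rose by 1.06 ± 0.13 and 0.97 ± 0.13 (marker-free 0.79 ± 0.13 and 0.73 ± 0.12). Without shared barcodes the second tumor library stood at 715 and 685 CPM, and the changes were 0.98 ± 0.19 and 0.90 ± 0.18. Mt-Co1 stood at 1002 and 941 CPM in blood against 1304 and 1109 in tumor, and its change of 0.37 ± 0.14 did not pass (adjusted p = 0.0563 in edgeR). DESeq2 with its size factors called all 8, and without the second sorted tumor library mt-Co1 was called in edgeR (0.40, adjusted p = 0.04985), as it was with no filter on low counts, with no mitochondrial filter and with an S100 threshold of 0.25%. In marker-free cells mt-Co1 stood at 968 and 867 CPM in blood and 874 and 801 in tumor, where the groups overlapped and the mean was lower in tumor (838 against 917). The fitted marker-free change of mt-Co1 was 0.15 ± 0.13 with TMM factors and −0.13 with library sizes alone, neither called, so its direction there depends on the scaling. Without shared barcodes the second tumor library stood at 931 CPM, below both blood libraries (991 and 934), and the change was 0.32 ± 0.20, not called.

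**Figure D1:**
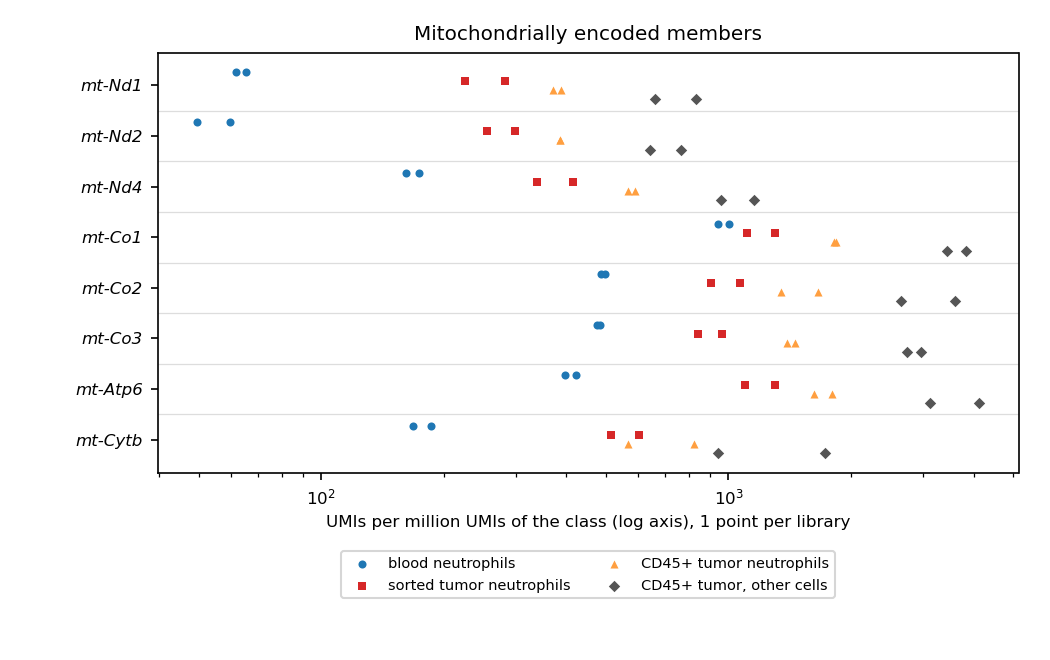
Levels of the 8 mitochondrially encoded genes in CPM of each class (log axis), 1 point per library. For every gene both sorted tumor libraries lie above both blood libraries, with the widest gap for mt-Nd2 and the narrowest for mt-Co1, and the other CD45+ tumor cells lie highest.

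The same counts can be written as a ratio within each library. Mt-Nd2 and mt-Co1 had the largest and smallest changes, so a gap between blood and tumor was given beforehand and adds no support. For every 100 UMIs of mt-Co1, blood neutrophils had 4.93 and 6.35 of mt-Nd2 and sorted tumor neutrophils 22.9 and 23.1. CD45+ tumor neutrophils had 21.1 and 21.2, other CD45+ tumor cells 18.6 and 19.9, and the few other cells of the blood libraries 22.7 and 21.8. Of these classes blood neutrophils had the lowest values. The other cells of the blood libraries were 86 and 77 cells below the S100 threshold. Of these, 39 and 31 lay just outside it (0.25% to 0.5%), so what kinds of cell they were is not shown. Marker-free neutrophils had 4.27 and 4.41 in blood, 19.2 and 16.0 in sorted tumor and 16.5 and 13.3 in the CD45+ libraries. The 3 complex I genes together had 13.7 and 15.7 UMIs per 100 of the 3 complex IV genes in blood, against 29.9 and 28.7 in sorted tumor neutrophils (marker-free 12.6 and 13.2 against 26.8 and 23.2). With 2 libraries a group an exact permutation test cannot pass the threshold, and none was run on these ratios.

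The mitochondrial genome encodes 5 further proteins, and all 5 rose in sorted tumor neutrophils, by 2.05 at the median (marker-free 1.90). On mm10 (GENCODE annotation) the complex I genes mt-Nd1 (chromosome M, 2751 to 3707) and mt-Nd2 (3914 to 4951) are the first of the protein genes, and mt-Co1 (5328 to 6872) and mt-Co2 (7013 to 7696) follow them. Mt-Atp8 (1.47 ± 0.16), mt-Atp6 (7927 to 8607) and mt-Co3 (8607 to 9390) come next, and then mt-Nd3 (2.05 ± 0.14), mt-Nd4l (2.24 ± 0.15), mt-Nd4 (10167 to 11544), mt-Nd5 (1.50 ± 0.13) and mt-Cytb (14145 to 15288). Mt-Nd6, the protein gene on the other strand, was at 2.13 ± 0.29. Mt-Nd4 and mt-Nd5 thus rose less than the other complex I genes along the same strand, and the lowest value was that of mt-Co1, which lies between mt-Nd2 and mt-Co2. Mt-Atp8 overlaps mt-Atp6, mt-Nd4l overlaps mt-Nd4 and mt-Nd6 overlaps the end of mt-Nd5, and copies of mitochondrial DNA in the nuclear genome can take or lose reads, so the split of reads among these genes is uncertain.

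**Figure D2:**
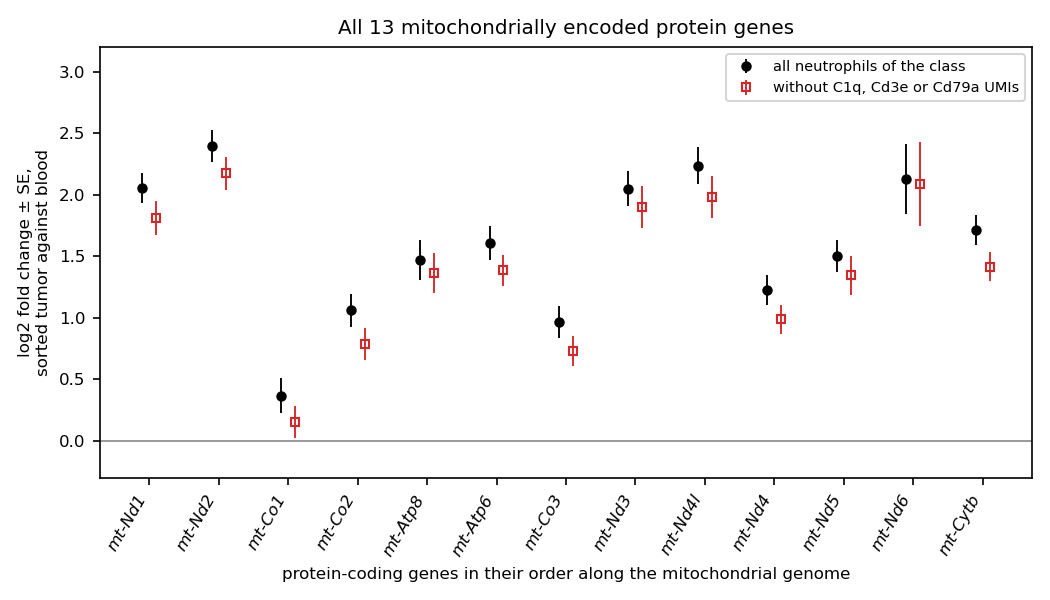
Log2 change ± SE (edgeR) from blood to sorted tumor neutrophils for all 13 mitochondrially encoded protein genes, in their order along the mitochondrial genome. Filled points are all neutrophils, open squares marker-free ones; mt-Nd2 is highest at 2.40 (marker-free 2.17) and mt-Co1 lowest at 0.37 (marker-free 0.15, or −0.13 with library sizes alone).

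As a sum, the 8 mitochondrial genes made up 0.282% and 0.281% of UMIs in blood neutrophils and 0.624% and 0.528% in sorted tumor neutrophils (0.576% ± 0.067, SD, n = 2). Without shared barcodes the second tumor library fell to 0.419%, and in marker-free cells the means were 0.252% ± 0.015 in blood and 0.365% ± 0.041 in tumor. The median share of mitochondrial UMIs per neutrophil was 0.218% and 0.211% in blood, against 0.251% and 0.214% in sorted tumor. The upper tail differed, with the 90th percentile at 0.550% and 0.594% in blood, against 1.14% and 0.929% in tumor. The medians of the tissues thus lay much closer together than the upper tails did. The part of phagocyte RNA in the summed difference was not tested beyond the marker-free values. Cells just inside the S100 threshold (0.5% to 1%) had summed shares of 0.379% and 0.823% in blood, against 0.979% and 1.20% in sorted tumor, and cells just outside it (0.25% to 0.5%) 0.364% and 0.390%, and 1.29% and 1.33%.

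**Figure D3:**
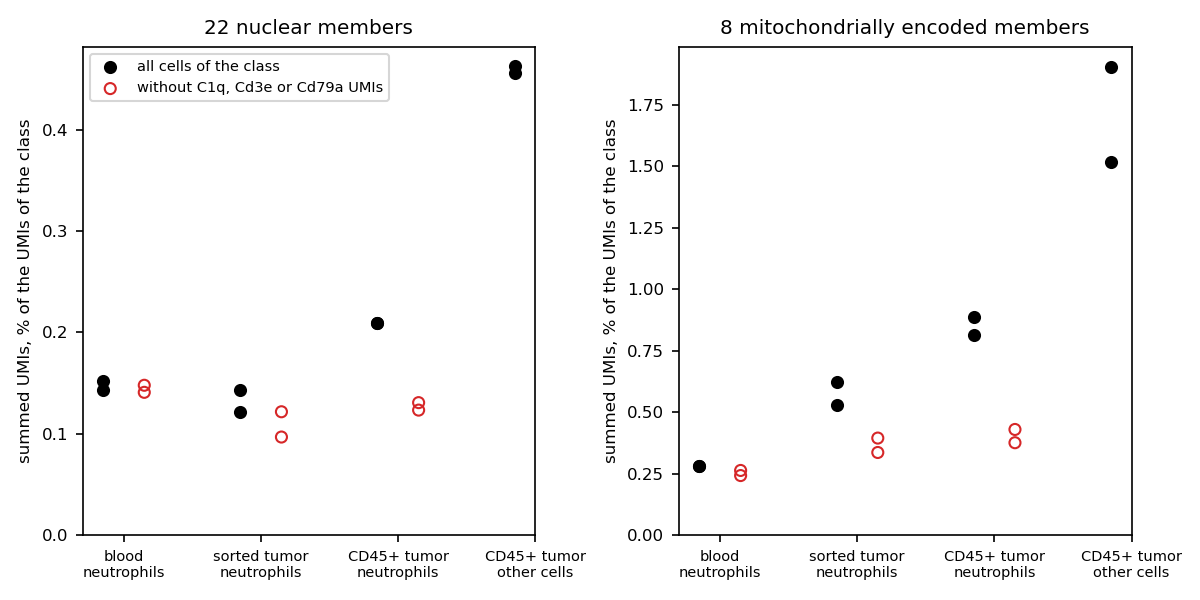
Summed UMIs of the 22 nuclear genes (left) and the 8 mitochondrial genes (right) as a percentage of the UMIs of each class, 1 point per library. Filled points are all cells of the class and open points marker-free neutrophils; the sorted tumor libraries lie at 0.624% and 0.528% for mitochondrial genes against 0.282% and 0.281% in blood, and below the other CD45+ tumor cells.

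Nuclear genes did not move as a block. Of the 22, edgeR called 5 higher and 7 lower in sorted tumor neutrophils, and 10 did not pass; their median change was −0.10. The 12 of 22 called compare with 63.7% of all genes. The summed share of UMIs was 0.143% and 0.152% in blood, against 0.143% and 0.121% in tumor neutrophils, so the libraries overlapped at their extremes. The 2 S100 genes took 14.1% ± 0.53 of blood and 6.67% ± 0.41 of tumor UMIs, and with S100 and mitochondrial UMIs removed from the total the nuclear share was 0.172% ± 0.006 and 0.143% ± 0.016. In all, 11 nuclear genes lay lower in both tumor libraries than in both blood libraries, 6 lay higher and 5 overlapped. The share of all genes that separate in this way was not counted, so these numbers show nothing particular to the nuclear genes. Many of the small changes depended on single libraries: with 1 library left out, Mdh2 ranged from −0.68 to −0.28 and Uqcrc2 from −0.74 to −0.43. Fewer of all genes were called as well with a library left out, so lost calls are not particular to the nuclear genes. The counts were 2 higher and 5 lower without shared barcodes, and 2 higher and 8 lower with library sizes in place of TMM factors. The share of all genes called at these settings is not given here, so these counts show nothing particular to the nuclear genes. The nuclear medians were −0.14 and −0.16, against 0.0005 and −0.04 over all genes. In marker-free cells 29.3% of all genes were called higher and 28.9% lower. Marker-free cells gave 2 higher (Cycs and Atp5d) and 7 lower (Ndufa4, Ndufs1, Sdha, Sdhb, Uqcrc2, Cox4i1 and Cox6c), and, with library sizes alone, 1 higher (Cycs) and 10 lower. Ndufs1, Sdha and Cycs were called in the same direction under each of these alternatives.

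Cycs, which encodes cytochrome c, the mobile carrier between complexes III and IV that also triggers the apoptosome when it leaves the mitochondrion, had the clearest rise. The gene (ENSMUSG00000063694) lies on the minus strand of chromosome 6 of mm10, at 50562563 to 50566538. It stood at 18.2 and 19.6 CPM in blood (230 and 379 UMIs) and at 89.5 and 104 CPM in sorted tumor neutrophils (1384 and 2529 UMIs). The tissues were well apart, and the rise was 2.42 ± 0.16 (adjusted p = 1.61e-05 in edgeR), or 5.36-fold. In marker-free cells the levels were 17.8 and 18.0 CPM against 91.4 and 101, and the rise was 2.72 ± 0.15. Without shared barcodes it was 2.48 ± 0.20. CD45+ tumor neutrophils stood at 96.4 and 94.1 CPM and other CD45+ tumor cells at 165 and 158. Processed pseudogenes of Cycs lie elsewhere in the genome, and how reads shared with them were counted is not stated per the labels.

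Ndufs1, the largest subunit of complex I and part of its NADH-oxidizing arm, fell the most. The gene (ENSMUSG00000025968) lies on the minus strand of chromosome 1, at 63143596 to 63176833. It stood at 28.5 and 24.96 CPM in blood and 10.7 and 10.2 in sorted tumor neutrophils, and fell by 1.29 ± 0.16 on the log2 scale (adjusted p = 0.000278 in edgeR; marker-free, a fall by 1.37 ± 0.18). Blood neutrophils had about the level of the other CD45+ tumor cells, 28.1 and 27.4 CPM. In the same arm, Ndufv1, which binds NADH, stood at 9.63 and 9.63 CPM in blood and 11.1 and 10.0 in tumor (0.19 ± 0.17, not called). Ndufb8, an accessory subunit of the membrane arm, stood at 42.1 and 47.6 against 45.7 and 35.9 (−0.08 ± 0.13, not called). Of these 3 nuclear genes 1 fell and 0 rose, and the 34 other nuclear complex I genes went both ways.

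Of complex II, which feeds electrons from succinate into the chain, both catalytic subunits fell. Sdha (ENSMUSG00000021577; chromosome 13, 74322254 to 74350280, minus strand), the flavoprotein, stood at 60.5 and 63.1 CPM in blood and 39.3 and 32.2 in sorted tumor neutrophils, a fall by 0.74 ± 0.12 (adjusted p = 0.00122 in edgeR). Sdhb, the iron-sulfur subunit, stood at 46.3 and 50.5 against 37.6 and 32.2 (a fall by 0.42 ± 0.12), a call lost without the first or the second blood library (−0.46 and −0.40). Sdhc, a membrane anchor, stood at 13.2 and 12.3 against 15.8 and 12.3 (0.19 ± 0.17, not called; −0.08 in marker-free cells).

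Among the called nuclear genes with a RefSeq promoter, Cycs rose the most and Sdha fell the most, and both kept their calls under the alternatives above. For these genes the 250 bases before the RefSeq start site are printed (RefSeq sequence, GRCm38.p6), 5′ to 3′ on the gene's strand. The Cycs window lies at chr6:50566570-50566819 and the Sdha window at chr13:74350241-74350490, both on the minus strand. Capitals mark ACGTG, a form of the core bound by hypoxia-inducible factors, and GCGCATGC, the core of nuclear respiratory factor 1. The form GCGTG was not searched or marked. Both strands were searched, so that the reverse complement is what appears in Cycs.
Cycs: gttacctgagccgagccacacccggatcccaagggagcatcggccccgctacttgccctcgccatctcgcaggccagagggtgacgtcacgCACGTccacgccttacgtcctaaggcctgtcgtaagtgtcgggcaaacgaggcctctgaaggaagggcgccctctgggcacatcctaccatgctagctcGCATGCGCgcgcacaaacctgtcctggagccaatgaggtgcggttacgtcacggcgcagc
Sdha: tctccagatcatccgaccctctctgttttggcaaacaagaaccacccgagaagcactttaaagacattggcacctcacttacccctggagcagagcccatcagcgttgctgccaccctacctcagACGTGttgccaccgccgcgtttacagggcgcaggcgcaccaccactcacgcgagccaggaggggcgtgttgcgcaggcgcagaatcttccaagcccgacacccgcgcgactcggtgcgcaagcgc
The start sites of RefSeq differ from the ends of the genes given above: the Sdha window reaches 40 bases into the gene, and 31 bases lie between the Cycs gene and its window. In Cycs ACGTG begins 159 bases and GCGCATGC 60 bases before the RefSeq start, and in Sdha ACGTG begins 125 bases before it. A RefSeq promoter was found for 15 of the 22 nuclear genes, and 5 of the 15 (33.3%) held ACGTG, which also occurs in 16.6% of all 32851 promoter windows of this length. They were Atp5d, Cox5a, Cycs, Ndufv1 and Sdha, of which Cycs and Atp5d rose, Sdha fell and 2 were not called, so the motif was found in genes of each kind. GCGCATGC was found in Cycs and Sdhb (13.3% of 15, against 2.26% of all windows), GGGCGG, the SP box, in 7 (46.7% against 32.7%), and CCGGAAG (ETS factors) and AAGGTCA (estrogen-related receptors) in 0 (6.91% and 4.08% of all windows). A nuclear gene was counted if any of its windows held the letters, whereas the shares of all windows are per window (32851 windows of 27025 genes). These percentages are therefore not like measures. A match is a string of letters in this window and says nothing of binding.

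Complex III transcripts, which pass electrons to cytochrome c, went both ways. Uqcrc2, a core subunit, stood at 31.6 and 28.4 CPM in blood and 22.6 and 16.1 in sorted tumor neutrophils (a fall by 0.59 ± 0.16), and lost its call without the second tumor library (−0.43) or the first blood library (−0.49). Uqcrfs1, the Rieske iron-sulfur protein, stood at 19.7 and 24.9 against 30.1 and 26.2 (0.39 ± 0.14) and lost its call when any 1 of the 4 libraries was left out (0.25 to 0.52). Uqcrfs1 was also not called without shared barcodes (0.38 ± 0.17) or in marker-free cells (0.38 ± 0.16). Uqcrc1, the other core subunit, stood at 24.0 and 22.4 against 22.0 and 16.4 (−0.23 ± 0.15, not called).

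The nuclear complex IV genes were low-amplitude and mostly downward. Ndufa4, once counted with complex I, fell by 0.41 ± 0.12 (81.2 and 89.9 CPM in blood, 63.4 and 59.7 in tumor), and more in marker-free cells, by 0.82 ± 0.11. Cox6c fell by 0.37 ± 0.13 (178 and 211 against 161 and 128), but without shared barcodes its change of −0.42 ± 0.16 was not called. Without the first or the second blood library Ndufa4 lost its call (−0.47 and −0.39), as did Cox6c (−0.47 and −0.30), which also lost it without the second tumor library (−0.30). Cox4i1, a subunit through which ATP regulates the enzyme, stood at 292 and 299 against 256 and 222 (−0.25 ± 0.11, not called; called at −0.34 ± 0.11 in marker-free cells). Cox5a (90.9 and 93.4 against 84.9 and 72.9) and Cox7a2 (159 and 181 against 165 and 137) were not called. None of the 5 rose, while mt-Co2 and mt-Co3 did.

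Of the 4 nuclear ATP synthase genes 2 rose and 2 were not called. Atp5o, of the peripheral stalk, stood at 19.1 and 21.9 CPM in blood and 34.6 and 24.4 in sorted tumor neutrophils (0.57 ± 0.16). Atp5d, of the central stalk, stood at 43.0 and 54.2 against 70.6 and 59.2 (0.47 ± 0.13). Without shared barcodes neither Atp5o (0.49 ± 0.23) nor Atp5d (0.44 ± 0.17) was called. The second tumor library then stood at 19.1 CPM for Atp5o and 50.8 for Atp5d, between the blood libraries (18.9 and 21.8, and 42.2 and 53.8). Atp5o lost its call without the first tumor library (0.41), without the first blood library (0.50) and in marker-free cells (0.27 ± 0.21; −0.0077 with library sizes alone), and Atp5d without the first blood library (0.34) and in marker-free cells with library sizes alone (0.15). The catalytic subunits Atp5a1 (52.1 and 51.8 against 67.7 and 49.6, 0.22 ± 0.14) and Atp5b (84.9 and 88.5 against 87.8 and 79.7, 0.01 ± 0.11) were not called; without the second tumor library Atp5a1 was called higher (0.36), and Atp5b turned to −0.05 with library sizes alone.

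Of the citric acid cycle enzymes, Idh3a, a catalytic subunit of isocitrate dehydrogenase, was near the floor in blood. It had 6 and 11 UMIs there (0.474 and 0.570 CPM) and 67 and 56 in sorted tumor neutrophils (4.33 and 2.30 CPM), and was called higher (2.66 ± 0.42). In marker-free cells it stood at 0.240 and 0.268 CPM in blood and 1.72 and 0.657 in tumor and did not pass the expression filter. Other CD45+ tumor cells had 16.6 and 30.6 CPM of Idh3a. Mdh2, malate dehydrogenase, stood at 96.1 and 84.9 CPM in blood and 76.1 and 50.5 in tumor (a fall by 0.47 ± 0.17), a call lost without the second tumor library (−0.28), without the first blood library (−0.36) and in marker-free cells (−0.22 ± 0.20). Mdh2 was also not called without shared barcodes (−0.44 ± 0.18). Citrate synthase, Cs, was close to level at 38.6 and 38.8 against 36.8 and 34.0 (−0.07 ± 0.12, not called).

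**Figure D4:**
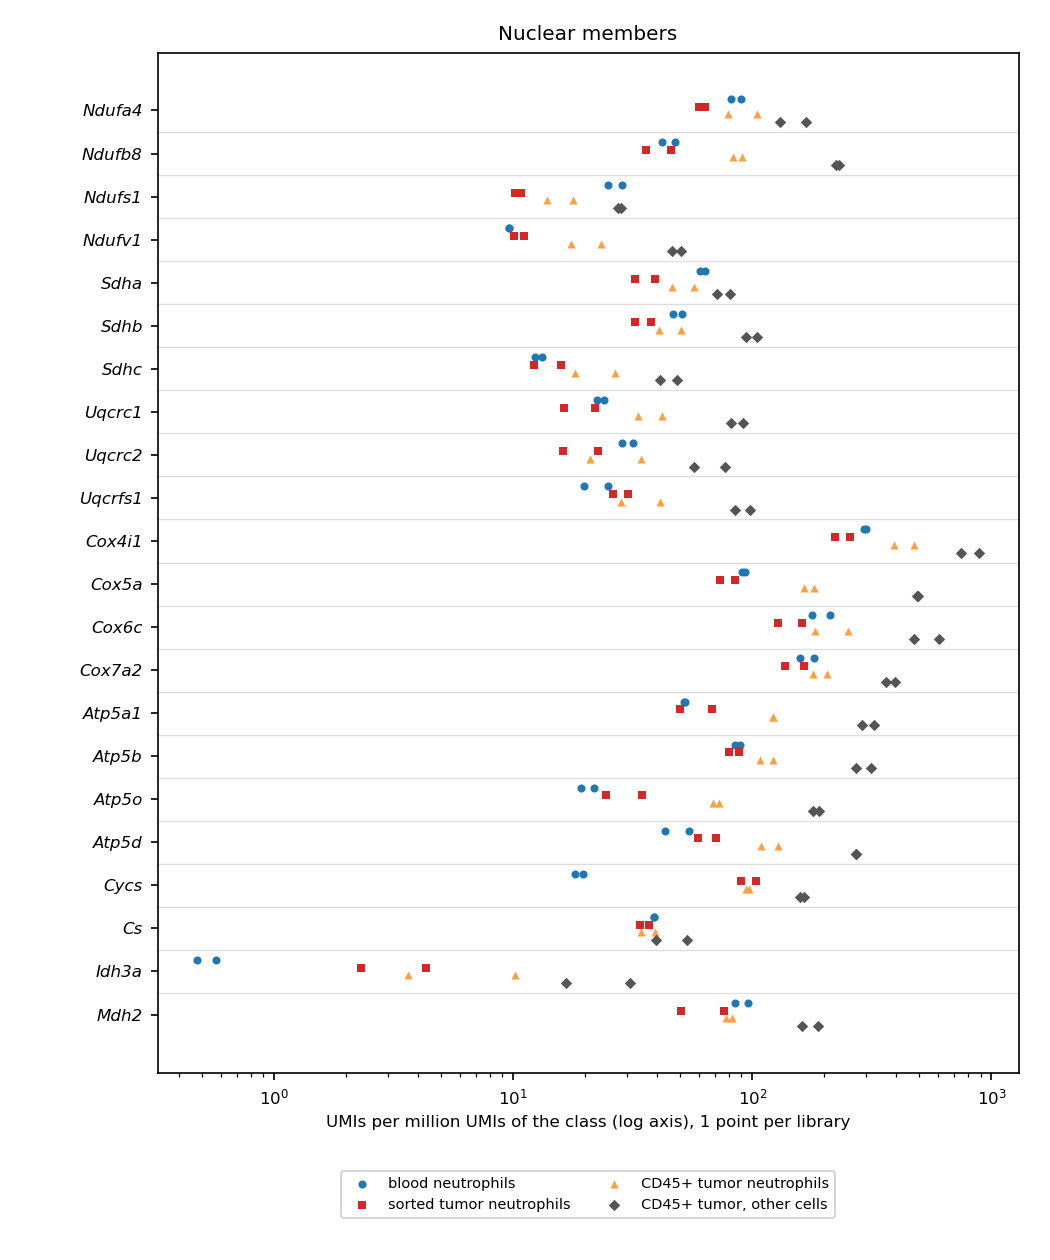
Levels of the 22 nuclear genes in CPM of each class (log axis), 1 point per library. Blood and sorted tumor neutrophils lie close together for most genes, with Cycs and Idh3a higher in tumor and Ndufs1 lower, and the other CD45+ tumor cells lie to the right for nearly all.

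The wider lists of nuclear genes for the complexes held genes of both directions, and their counts are read against the 33.1% of all genes called higher and the 30.6% called lower. Among 34 other nuclear complex I genes 10 rose and 11 fell (median −0.17), shares near those of all genes: Ndufa5 rose by 2.32 ± 0.22 (2.29 and 3.06 CPM in blood, 14.5 and 11.6 in tumor) and Ndufa8 fell by 1.03 ± 0.14. Of 7 other genes of complexes II and III 2 rose, with Uqcrb at 1.08 ± 0.17, and 2 fell, with Uqcr10 at −0.61 ± 0.11 (median −0.24). Of 8 measured genes of complex IV 2 rose and 1 fell (median −0.17). Cox6a2, an isoform typical of muscle, had 1 UMI in blood and 262 in sorted tumor neutrophils, a ratio of 210 (95% counting interval 37.4 to 8335), and did not pass the filter in marker-free cells. Cox7a2l fell by 0.66 ± 0.12. Of 13 other ATP synthase genes 4 rose, led by Atp5g1 (1.23 ± 0.14), and 7 fell, led by Atp5l (−0.64 ± 0.12), with a median of −0.35. The marker-free counts of rises and falls were 6 and 11, 1 and 2, 0 and 2, and 3 and 7 in the same order of lists.

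Of 15 enzymes of pyruvate dehydrogenase and the citric acid cycle 7 rose and 6 fell (median −0.14; marker-free 3 and 5). Suclg2, a subunit of succinyl-CoA ligase, rose by 2.70 ± 0.25, and Ogdh, of the oxoglutarate dehydrogenase complex, fell by 1.03 ± 0.12. Assembly factors, which build the complexes but are not part of them, rose in 13 and fell in 2 of 34 (median 0.24; marker-free 10 and 4 of 32). Ndufaf6, an assembly factor of complex I, went from 0.395 and 0.777 CPM to 8.41 and 11.3 (4.07 ± 0.37; marker-free 4.48 ± 0.39). Surf1, an assembly factor of complex IV, fell by 0.89 ± 0.17. Regulators of mitochondrial gene expression rose in 4 and fell in 4 of 19 (median 0.39; marker-free 2 and 4 of 16). The coactivator Ppargc1b was at 2.92 ± 0.59, from 0.0789 and 0.259 CPM to 1.88 and 0.984, and was not testable in marker-free cells, and Twnk, the helicase that opens mitochondrial DNA for replication, fell by 1.57 ± 0.32.

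Genes that tie mitochondria to oxygen supply rose in 6 and fell in 1 of 8 (median 2.37; marker-free also 6 and 1, median 2.72). Cox4i2, the complex IV isoform that replaces Cox4i1 at low oxygen, went from 0.474 and 0.570 CPM to 4.07 and 6.07 (3.34 ± 0.40), and Iscu, the scaffold on which iron-sulfur clusters are built, fell by 1.13 ± 0.12 (162 and 190 to 77.3 and 76.6 CPM). Of 13 genes of cytochrome c release and the apoptosome 4 rose and 6 fell (median −0.33; marker-free 4 and 4). Bcl2l1, which encodes the survival protein that keeps cytochrome c in mitochondria, rose by 2.95 ± 0.20 (73.0 and 88.9 to 524 and 668 CPM), and Bid, which promotes the release, fell by 2.17 ± 0.15 (61.0 and 53.2 to 13.7 and 10.8 CPM). Of 10 carriers, pores and uncouplers 3 rose and 4 fell (median −0.02; marker-free 3 and 5), with the adenine nucleotide carrier Slc25a4 at 3.39 ± 0.27 and the uncoupling protein Ucp2 at −1.14 ± 0.16.

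Within the CD45+ tumor libraries neutrophils held less of both gene sets than the other cells around them. Of the 22 nuclear genes 20 were lower and 0 higher, and all 8 mitochondrial genes were lower, where 42.9% of 16105 genes were called (19.3% higher, 23.6% lower); the median changes were −0.98 and −0.76 against −0.16 over all genes. In marker-free neutrophils 43.9% of genes were called (15.7% higher, 28.2% lower), 20 nuclear and 8 mitochondrial genes were lower, and the medians were −1.85 and −1.84 against −0.70 over all genes. In CPM all 30 genes were lower in the neutrophils of each library than in the other cells of both. How many of all genes were so was not counted, and with library sizes only the median over all genes was −0.40. The summed nuclear share was 0.209% and 0.209% in neutrophils and 0.456% and 0.463% in other cells, and the mitochondrial share 0.815% and 0.885% against 1.52% and 1.90%.

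The nuclear genes with the largest falls were Idh3a (−1.49 ± 0.28), from 16.6 and 30.6 CPM in other cells to 3.62 and 10.1 in neutrophils, and Cox5a (−1.28 ± 0.12), from 486 and 491 to 181 and 164. Atp5o, Ndufb8 and Uqcrfs1 fell by 1.16 ± 0.15, 1.16 ± 0.14 and 1.14 ± 0.17. The 3 members with the smallest differences were Cs (−0.12 ± 0.18) and Sdha (−0.34 ± 0.16), which were not called, and Ndufa4 (−0.47 ± 0.14). Cycs, at −0.53 ± 0.14, stood at 96.4 and 94.1 CPM against 165 and 158. The mitochondrial genes spanned only −0.85 (mt-Atp6) to −0.64 (mt-Nd2), in contrast to the wide spread between tumor and blood neutrophils. Mt-Co1 stood at 1833 and 1820 CPM in neutrophils and 3447 and 3828 in other cells, and mt-Nd2 at 386 and 385 against 640 and 763. With the library as a block, little was left to measure each gene's own spread. These p-values therefore rest mainly on variance shared over all genes. Without the block 14 nuclear and 2 mitochondrial genes were called lower, where 1861 of all genes were called higher and 1661 lower.

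The other cells were mostly phagocytes: 6618 and 6625 carried at least 3 UMIs of phagocyte markers and fewer than 2 of lymphocyte markers, and 355 and 97 carried at least 3 of lymphocyte markers and fewer than 3 of phagocyte markers. Against the lymphocyte-marker cells alone 54.9% of 9555 genes were called (29.9% higher, 25% lower), and the neutrophils' nuclear median was 0.07 (3 higher, 2 lower) and their mitochondrial median −0.23 (3 lower), with −0.01 over all genes. For marker-free neutrophils against those cells 58.5% of 7998 genes were called (29.7% higher, 28.8% lower), and the medians were −0.57 (0 higher, 5 lower) and −1.14 (8 lower), with −0.14 over all genes. Both medians thus lay nearer to 0 against lymphocyte-marker cells than against all other cells, with and without marker UMIs. Mt-Co1, for example, was at −0.45 ± 0.10, and at −1.06 ± 0.13 for marker-free neutrophils. No test was run of the difference between these settings.

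Most of the other lists were lower in neutrophils within these libraries, where 19.3% of all genes were called higher and 23.6% lower. The other cells were mostly phagocytes. Against lymphocyte-marker cells alone the nuclear median above was 0.07, and −0.57 for marker-free neutrophils. Without the replicate block fewer genes of both sets, and fewer of all genes, were called. The lists here are not given at those settings, so a deficit against other kinds of cell is not shown for them. All 34 other nuclear complex I genes were lower in neutrophils (median −1.005), as were all 7 of complexes II and III (−0.70) and all 13 of ATP synthase (−0.93); of 9 for complex IV 7 were lower and 1 higher. All 5 further mitochondrially encoded genes were lower (−0.66). Of the citric acid cycle list 10 of 15 were lower and 0 higher, and of the carriers 8 of 10 were lower and 0 higher. Assembly factors were lower in 18 and higher in 2 of 34, and the regulators of mitochondrial gene expression lower in 8 and higher in 2 of 20. Fewer oxygen-linked genes (2 higher, 1 lower of 9) and apoptosome genes (2 higher, 3 lower of 13) were called. Bcl2l1 was among the latter and higher in neutrophils, at 562 and 576 CPM against 124 and 108 in other cells (2.53 ± 0.11).

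CD45+ tumor neutrophils, taken without the neutrophil gate, were set against the same blood libraries, so this comparison shares its control samples with the one above and the values are given side by side. Among 12321 genes 60.3% were called (30.8% higher, 29.5% lower). All 8 mitochondrial genes were higher (median 1.54), from mt-Nd2 at 2.47 ± 0.14 and mt-Nd1 at 2.23 ± 0.13 down to mt-Co1 at 0.56 ± 0.15. In marker-free cells 41.1% of genes were called (20.3% higher, 20.9% lower), 7 of the 8 were higher with a median of 0.98, and mt-Co1 was at 0.13 ± 0.16. Mt-Co1 was also not called without either blood library (0.61 and 0.46). In marker-free CD45+ tumor neutrophils mt-Nd2 stood at 181 and 118 CPM, and in marker-free blood neutrophils at 41.4 and 38.3.

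Of the nuclear genes 8 were higher (Ndufb8, Ndufv1, Cox5a, Atp5a1, Atp5o, Atp5d, Cycs and Idh3a) and 3 lower (Ndufs1, Sdha and Mdh2), with a median of 0.26. Cycs rose by 1.99 ± 0.14 and Ndufs1 fell by 1.07 ± 0.22 (13.8 and 17.7 CPM). In marker-free cells 2 were higher (Cycs, 2.22 ± 0.18, and Atp5o, 0.84 ± 0.22) and 5 lower (Ndufs1, Sdhb, Uqcrc2, Cox6c and Mdh2), with a median of −0.17 against −0.14 over all genes tested. Phagocyte markers were higher here than in the sorted tumor neutrophils, at 8276 and 12788 CPM, or 1878 and 1818 in marker-free cells, so the marker-free CD45+ class still held phagocyte RNA, whose part in these values was not tested. With library sizes alone the median of all genes moved from 0.01 to 0.36, the nuclear counts became 13 higher and 1 lower, and Ndufa4, Cox6c and Cox7a2 turned positive (0.12, 0.17 and 0.18). The nuclear counts also changed when single libraries were left out, with Uqcrfs1 from −0.07 to 0.58 and Cox6c from −0.51 to 0.07.

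**Figure D5:**
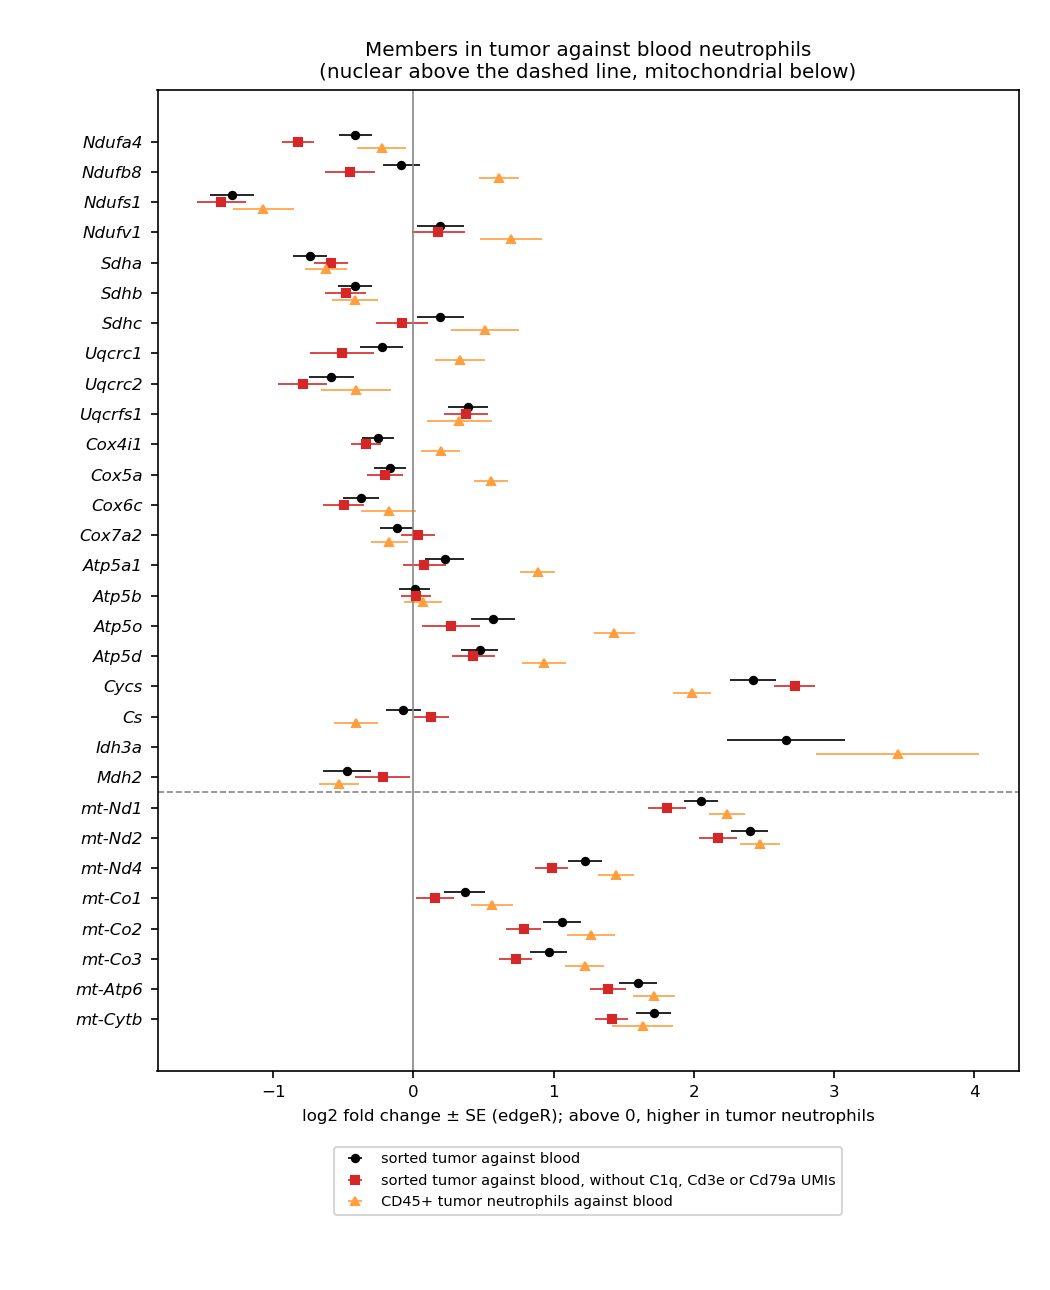
Log2 change ± SE (edgeR) from blood to tumor neutrophils for the 22 nuclear and 8 mitochondrial genes, in sorted tumor neutrophils (black), marker-free sorted tumor neutrophils (red) and CD45+ tumor neutrophils (orange), which share the blood libraries. Mitochondrial genes lie to the right of 0 in all 3 series, though mt-Co1 in marker-free cells falls to −0.13 with library sizes alone, and among nuclear genes Cycs lies near 2 or above and Ndufs1 at −1.29, −1.37 and −1.07; with library sizes alone Atp5b in sorted, Ndufv1, Atp5a1, Atp5b, Atp5o, Cox7a2 and Cs in marker-free sorted and Ndufa4, Cox6c and Cox7a2 in CD45+ tumor neutrophils change sign.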

How the data were processed

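The deposited values are raw UMI counts per gene and cell barcode, which the authors obtained from Cell Ranger (version 7.1.0; build mm10), per the submitters' processing notes; no further step is given in the sources used here. Barcodes with fewer than 200 genes or more than 10% mitochondrial UMIs were left out. Scrublet, run in scanpy 1.11.5, called at most 0.160% of cells doublets by its own threshold, so its highest scores were removed up to 0.8% per 1000 cells (114 to 733 per library), which may leave doublets in. Counts were summed per library and class, since cells are not replicates, and tested with edgeR 4.0.16 (quasi-likelihood, TMM factors, filterByExpr, Benjamini-Hochberg adjusted p below 0.05 over all genes tested), in R 4.3.3. SEs were derived from the log2 change and the F statistic. DESeq2 1.42.0 was an alternative. Neutrophils and other cells of the CD45+ libraries were compared with the library as a block. UMIs per barcode are 3′ tags, so levels are not compared between genes.

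Libraries held 3121 to 9418 barcodes and 13945799 to 129422458 UMIs. Replicate libraries differed by more than counting noise (a chi-square over genes divided by its degrees of freedom gave 9.66 to 136), so none was counted as a copy. The edgeR steps were tested on simulated data. The members, the 11 pathway lists and the 9 marker lists were chosen with earlier results of these data known. All 30 members are named, and from each pathway list the called gene with the largest rise and the one with the largest fall in sorted tumor against blood neutrophils. Alternatives covered test, scaling, filters, class threshold, doublets, marker UMIs, shared barcodes, other-cell class, replicate block and single libraries. Promoters are RefSeq sequences on GRCm38.p6, and gene positions are from GENCODE on the same assembly.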

Additional observations from a re-analysis of the deposited data

How the results depend on the processing

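Each value here is a number of genes called, a log2 change or a summed share of UMIs in neutrophils with 1 choice altered, or 2 where a setting names both, and the cause of a change was not tested. DESeq2 came with its own size factors. The choices on shared barcodes, on library sizes joined with the marker rule, on the 2% threshold joined with the marker rule, on the marker rule for summed shares and on marker-free neutrophils against lymphocyte-marker cells were added after seeing the data. The comparison of sorted tumor with blood neutrophils is called the sorted comparison, and that of CD45+ tumor with blood neutrophils the CD45+ comparison. In the sorted comparison the 7 mitochondrial genes called, Cycs, Ndufs1 and Sdha kept their calls under every alternative run. Among the values of the 30 genes there 478 kept direction and side of the threshold, 42 lost a call, 14 gained one and 24 changed sign, these being of Atp5b, Cs, Sdhc, Cox7a2, Ndufb8, Ndufv1, Atp5a1, Atp5o and mt-Co1, of which Atp5o was called. For neutrophils against other cells within the CD45+ libraries these numbers were 410, 39, 2 and 20, and in the CD45+ comparison 420, 51, 43 and 43.

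With library sizes in place of TMM factors, the sorted comparison had 2 nuclear genes called higher, and a change of sign in Atp5b (−0.051). At that setting the CD45+ comparison had 13 nuclear genes called higher and 1 lower, and a change of sign in Ndufa4 (0.12), Cox6c (0.17) and Cox7a2 (0.18). With an S100 threshold of 2%, the sorted comparison had 3 nuclear genes called higher, and a change of sign in Atp5b (−0.037) and Cs (0.10). With the same choice the comparison within CD45+ libraries had a change of sign in Cs (0.28). Under it the CD45+ comparison had 2356 genes called higher and 2363 lower, and 2 nuclear genes called higher and 6 lower, and a change of sign in Ndufb8 (−0.060), Uqcrc1 (−0.31), Uqcrfs1 (−0.33), Cox4i1 (−0.048), Atp5b (−0.20) and Cs (0.19). Summed shares of nuclear genes were 0.127% in CD45+ tumor and 0.114% in sorted tumor; those of mitochondrial genes were 0.436% in CD45+ tumor, 0.263% in blood and 0.429% in sorted tumor. With no doublet removal, the sorted comparison had a change of sign in Atp5b (−0.013). At that setting the CD45+ comparison had 13 nuclear genes called higher, and a change of sign in Cox6c (0.23) and Cox7a2 (0.032). Summed shares of nuclear genes were 0.276% in CD45+ tumor; those of mitochondrial genes were 1.07% in CD45+ tumor and 0.279% in blood. In marker-free neutrophils, the sorted comparison had 2 nuclear genes called higher, and a change of sign in Sdhc (−0.080), Cox7a2 (0.032) and Cs (0.13). With the same choice the CD45+ comparison had 2222 genes called higher and 2284 lower, and 2 nuclear genes called higher and 5 lower, and a change of sign in Ndufb8 (−0.17), Uqcrc1 (−0.29), Uqcrfs1 (−0.46), Cox4i1 (−0.12) and Atp5b (−0.17). Summed shares of nuclear genes were 0.127% in CD45+ tumor and 0.109% in sorted tumor; those of mitochondrial genes were 0.402% in CD45+ tumor, 0.252% in blood and 0.365% in sorted tumor. In marker-free neutrophils at a threshold of 2%, the sorted comparison had 2 nuclear genes called higher, and a change of sign in Sdhc (−0.039), Cox7a2 (0.037) and Cs (0.17). Under it the CD45+ comparison had 1806 genes called higher and 1790 lower, and 1 nuclear gene called higher and 8 lower, and a change of sign in Ndufb8 (−0.98), Ndufv1 (−0.045), Sdhc (−0.056), Uqcrc1 (−1.06), Uqcrfs1 (−0.69), Cox4i1 (−0.18), Cox5a (−0.012), Atp5b (−0.28), Cs (0.033) and mt-Co1 (−0.018). Summed shares of nuclear genes were 0.106% in CD45+ tumor and 0.105% in sorted tumor; those of mitochondrial genes were 0.320% in CD45+ tumor, 0.247% in blood and 0.344% in sorted tumor. Without barcodes found in more than 1 library, the sorted comparison had 2 nuclear genes called higher, and a change of sign in Atp5b (−0.024). In marker-free neutrophils without those barcodes, the sorted comparison had 2 nuclear genes called higher, and a change of sign in Sdhc (−0.054), Cox7a2 (0.033) and Cs (0.14). At that setting the CD45+ comparison had 2202 genes called higher and 2300 lower, and 2 nuclear genes called higher and 6 lower, and a change of sign in Ndufb8 (−0.19), Uqcrc1 (−0.28), Uqcrfs1 (−0.45), Cox4i1 (−0.13) and Atp5b (−0.22). In marker-free neutrophils with library sizes alone, the sorted comparison had 2817 genes called higher, and 1 nuclear gene called higher, and a change of sign in Ndufv1 (−0.11), Sdhc (−0.37), Atp5a1 (−0.20), Atp5b (−0.27), Atp5o (−0.0077) and mt-Co1 (−0.13). With the same choice the CD45+ comparison had 2156 genes called higher and 2351 lower, and 2 nuclear genes called higher and 6 lower, and a change of sign in Ndufb8 (−0.20), Uqcrc1 (−0.32), Uqcrfs1 (−0.50), Cox4i1 (−0.13) and Atp5b (−0.20). With DESeq2 and its size factors, the comparison within CD45+ libraries had 1857 genes called lower, and a change of sign in Cs (0.0052). With no replicate block, the comparison within CD45+ libraries had 1861 genes called higher and 1661 lower, and 2 mitochondrial genes called lower. Against lymphocyte-marker cells alone, the comparison within CD45+ libraries had 2385 genes called lower, and 3 nuclear genes called higher and 2 lower, and 3 mitochondrial genes called lower, and a change of sign in Ndufb8 (0.58), Sdhb (0.091), Sdhc (0.38), Uqcrc1 (0.24), Cox4i1 (0.36), Cox5a (0.34), Cox7a2 (0.26), Atp5b (0.058), Atp5o (0.10), Cycs (0.56), Cs (0.53), Mdh2 (0.44) and mt-Cytb (0.0056). For marker-free neutrophils against lymphocyte-marker cells, the comparison within CD45+ libraries had 2303 genes called lower, and 5 nuclear genes called lower, and a change of sign in Sdhc (0.057), Cox7a2 (0.16), Cycs (0.61), Cs (0.72) and Mdh2 (0.10). With no filter on low counts, the CD45+ comparison had 5 nuclear genes called higher and 6 lower, and a change of sign in Cox4i1 (−0.019) and Atp5b (−0.13). With an S100 threshold of 0.25%, the CD45+ comparison had a change of sign in Cox6c (0.15) and Cox7a2 (0.091). With at most 5% mitochondrial UMIs, summed shares of nuclear genes were 0.210% in CD45+ tumor; those of mitochondrial genes were 0.280% in blood. With no mitochondrial filter, summed shares of mitochondrial genes were 0.287% in blood.

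Leaving out each replicate in turn gave, in the sorted comparison, Atp5b from −0.0092 to 0.037 and Ndufb8 from −0.16 to 0.0014. The number of nuclear genes called there changed, and fewer of all genes were called as well, so the change is not particular to the nuclear genes. In the CD45+ comparison it gave 5 to 9 nuclear genes higher and 1 to 8 lower, 2177 to 3718 genes higher and 2267 to 3804 lower, with Atp5b from −0.095 to 0.19, Cox6c from −0.51 to 0.072 and Uqcrfs1 from −0.073 to 0.58. With 1 library left in a group, the lone library is assumed to vary like the others, and for neutrophils against other cells no residual degree of freedom remains, so it was not run. The labels do not tie replicate numbers to shared animals, and deviations of same-numbered libraries correlated at 0.00219 between blood and sorted tumor and 0.0816 between blood and CD45+ tumor over 10890 genes. With the replicate block sorted tumor neutrophils had 5 nuclear genes higher and 7 lower and 7 mitochondrial genes higher, and CD45+ tumor neutrophils 7, 3 and 8. Idh3a rested on 6 and 11 UMIs in blood, and CD45+ tumor neutrophils on 611 and 792 cells, which limits what small changes could be called there.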
